A study of Danio rerio with 9 samples.

Results

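The 6 transcripts described here are mt-nd1, mt-nd2, mt-co1, mt-co2, mt-atp8 and mt-atp6, which are encoded by the mitochondrial genome of zebrafish. They were chosen by transcript ID, and all 6 were found among the 52216 transcript IDs deposited for each library. The libraries were made from 3 populations sorted out of dissociated trunks at 72 hours post fertilization, with 3 libraries each, and all fish were of the AB* strain. Schwann cells, the glia of peripheral nerves, were positive for both reporters of Gt(foxd3:mCherry);Tg(sox10:mEGFP) fish. Oligodendrocyte lineage cells, which comprise the glia that myelinate brain and spinal cord axons together with their precursors, were positive for both reporters of Tg(olig2:dsred);Tg(sox10:megfp) fish. Neurons were positive for the single reporter of Tg(nbt:dsred) fish. The gate is set by these reporters alone, and foxd3 and sox10 are also active in other derivatives of the neural crest. Marker genes of the populations were not analysed here, because no source here gives gene symbols for the deposited IDs.

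Mitochondria carry their own small genome, whose protein-coding genes all specify subunits of the machinery of oxidative phosphorylation. In vertebrates it is copied from each strand as a long precursor RNA, which is cut into single messengers mostly at the transfer RNAs that lie between the genes, and most of these messengers then receive a short poly(A) tail. The mt-nd genes encode membrane subunits of complex I, the NADH dehydrogenase where electrons enter the respiratory chain. The mt-co genes encode the core of complex IV, the cytochrome c oxidase that passes electrons to oxygen. The proteins of mt-atp8 and mt-atp6 belong to the ATP synthase, which uses the proton gradient built by the chain, and their reading frames overlap on a shared messenger.

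The gene names rest on length and order. A run of 13 deposited IDs, from ENSDART00000093596.3 to ENSDART00000093625.3, had the lengths of the 13 protein-coding genes of the mitochondrial chromosome in the RefSeq table of assembly GRCz12tu, in the same order for all 13. The 6 described transcripts are the first 6 of this run. ENSDART00000093596.3 is 975 bases long and corresponds to mt-nd1, and ENSDART00000093600.3 is 1047 bases long and corresponds to mt-nd2. ENSDART00000093606.3 is 1551 bases long and corresponds to mt-co1, and ENSDART00000093609.3 is 691 bases long and corresponds to mt-co2. ENSDART00000093611.3 is 165 bases long and corresponds to mt-atp8, and ENSDART00000093612.3 is 684 bases long and corresponds to mt-atp6. A length alone does not identify a transcript, since 2 to 31 deposited IDs had the length of a given member. In each library the counts of all 13 were whole, with a tolerance of 1e-06, although the deposited column holds estimated counts that need not be whole.

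Summed counts ranged from 7123251 to 17126213 per library. Levels are given as CPM, counts per 1000000 of the library total. Together the 6 transcripts took 0.817%, 1.01% and 0.364% of the counts in Schwann cells replicates 1, 2 and 3. In oligodendrocyte lineage libraries they took 0.265%, 0.311% and 0.535%, and in neuron libraries 0.199%, 0.291% and 0.160%. Every Schwann cell library lay above every neuron library, while the oligodendrocyte lineage overlapped with both. The group means were 0.730% ± 0.331, 0.370% ± 0.144 and 0.217% ± 0.0675 (SD, n = 3 each). These shares add the members up and were not tested. In bulk RNA, fewer cells of a type and less RNA per cell cannot be told apart. A share also depends on the counts of all other transcripts, so it does not give the number of mitochondria per cell. The labels do not say whether replicates stem from different clutches or sorts, and p-values thus reflect only the scatter of these samples, which may be technical.

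Among the complex IV subunits, mt-co1 was the most abundant of the 6. It encodes the catalytic subunit of cytochrome c oxidase. Schwann cell libraries held 6014, 6753 and 2412 CPM of it, oligodendrocyte lineage libraries 1610, 2007 and 3359, and neuron libraries 1509, 2078 and 1134. All Schwann cell libraries were above all neuron libraries, by 1.16-fold between the nearest pair, whereas oligodendrocyte lineage replicate 3 was above Schwann cells replicate 3 and the oligodendrocyte lineage overlapped with neurons. Among the 23408 transcripts that passed the filter on low counts, mt-co1 ranked 1, 3 and 14 by CPM in the Schwann cell libraries, and between 17 and 42 in the other 6 libraries. By itself it supplied 60.7% to 75.9% of the counts of the 6.

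The second complex IV transcript, mt-co2, encodes the subunit that receives electrons from cytochrome c. Its level was 1366, 1982 and 681 CPM for Schwann cell libraries, 599.8, 575 and 1029 for oligodendrocyte lineage libraries and 267, 429 and 271 for neuron libraries. Neurons lay below each glial group in all libraries, and the 2 glial groups overlapped. As ratios of mean CPM, its level in neurons was exceeded 4.16-fold by Schwann cells and 2.28-fold by the oligodendrocyte lineage.

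Of the 6, the complex I transcripts mt-nd2 and mt-nd1 had far lower levels than mt-co1 and mt-co2. Complex I transcripts outside the 6 differed widely, with Schwann cell means of 1.95 CPM for mt-nd3 and 997 CPM for mt-nd4. For mt-nd2, the Schwann cell libraries gave 395, 327 and 193 CPM, those of the oligodendrocyte lineage 154, 126 and 285, and those of neurons 70.8, 116 and 51.2. Again every glial library was above every neuron library, but the lowest oligodendrocyte lineage library exceeded the highest neuron library by only 1.09-fold. After TMM scaling the oligodendrocyte lineage overlapped with neurons, while every Schwann cell library stayed above every neuron library. For mt-nd1, they gave 64.8, 238 and 83.0 CPM (Schwann cells), 40.6, 65.5 and 115 CPM (oligodendrocyte lineage) and 19.3, 71.1 and 46.2 CPM (neurons). It was the only one of the 6 whose libraries overlapped between all 3 populations.

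Of the ATP synthase transcripts, mt-atp6 encodes the subunit that forms part of the proton channel. Its level reached 324, 766 and 262 CPM in the Schwann cell libraries, 243, 328 and 547 in those of the oligodendrocyte lineage and 120, 213 and 94.7 in those of neurons. Glial libraries were all above neuron libraries, and the means of both glial groups lay close together, at 451 ± 275 and 373 ± 157 CPM (SD, n = 3 each). The short mt-atp8, which encodes a small accessory subunit of the same membrane part, had the lowest CPM of the 6 in every library. The values were 10.4, 21.8 and 7.15 CPM (Schwann cells), 5.76, 5.83 and 13.4 CPM (oligodendrocyte lineage) and 2.34, 5.33 and 2.13 CPM (neurons). CPM is not divided by length, and mt-atp8 has 165 bases against 684 for mt-atp6. Its low CPM thus does not by itself give a low number of molecules. Here counting error is not negligible: the 2.13 CPM of neurons replicate 3 rest on 29 counts, with a 95% Wilson interval of 1.48 to 3.05 CPM that covers counting error only, because the libraries hold PCR copies without molecular identifiers. As for mt-nd2, all glial libraries were above all neuron libraries by CPM, by 1.08-fold between the nearest pair of the oligodendrocyte lineage and neurons. TMM scaling removed the order of these populations but not that of Schwann cells over neurons.

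**Figure D1:**
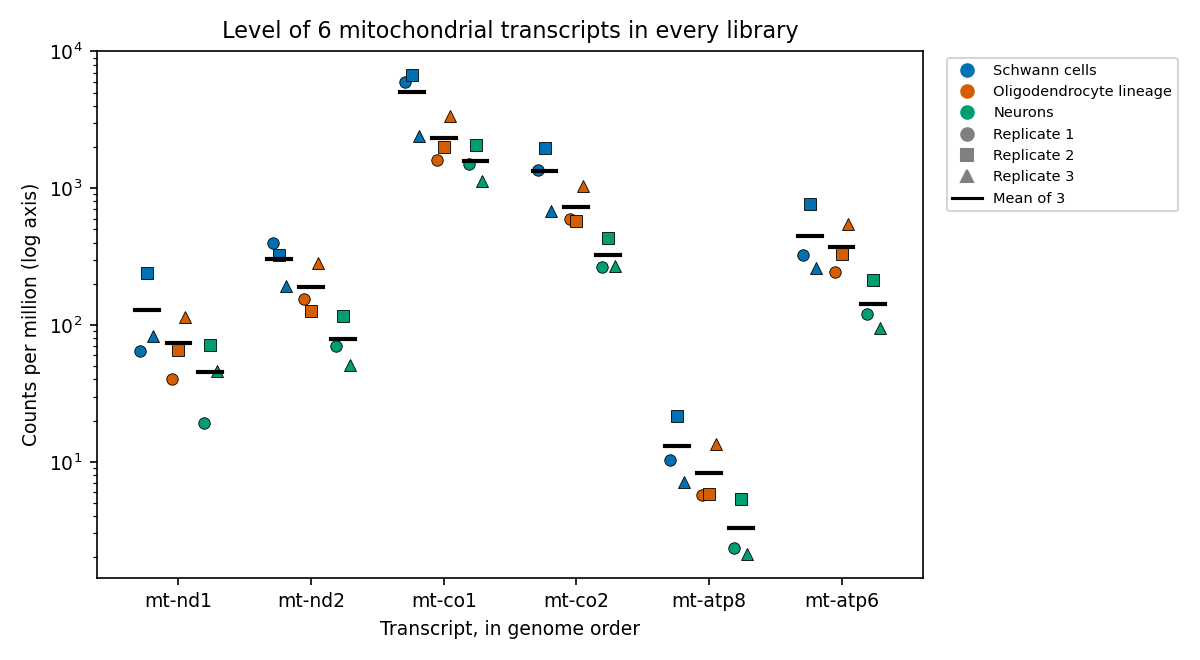
CPM (log axis) of the 6 transcripts in genome order, with 1 symbol per library (circle, square and triangle for replicates 1, 2 and 3), colours for the sorted populations and a bar at the mean of 3 libraries. For every transcript the mean falls from Schwann cells (5060 CPM for mt-co1) over the oligodendrocyte lineage (2325 CPM) to neurons (1574 CPM). The glial groups overlap for all 6, with Schwann cells replicate 3 below oligodendrocyte lineage replicate 3.

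Schwann cells and neurons showed the widest difference in the 6 transcripts, and it did not pass the test. The ratio of mean CPM was 2.83-fold for mt-nd1, 3.85-fold for mt-nd2, 3.22-fold for mt-co1, 4.16-fold for mt-co2, 4.01-fold for mt-atp8 and 3.16-fold for mt-atp6. For 5 of the 6, all but mt-nd1, every Schwann cell library was above every neuron library, an order held by 7.42% of all tested transcripts. With edgeR's quasi-likelihood test across all 23408 transcripts and Benjamini-Hochberg adjustment, 0 of the 6 were called at an adjusted p under 0.05, against 0.355% of all transcripts in either direction. At an unadjusted p under 0.05, 4 of the 6 were higher in Schwann cells, a level reached in this direction by 2.7% of all transcripts. These were mt-nd2, mt-co1, mt-co2 and mt-atp6. The count was 2 of the 6 without neurons replicate 1 or neurons replicate 3. Without Schwann cells replicate 2 the fitted log2 fold change of mt-nd1 went from 1.29 to 0.485 and that of mt-atp6 from 1.47 to 0.853.

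The clearest of these differences was that of mt-co2, with a log2 fold change of 1.87 (SE 0.494, edgeR adjusted p = 0.126). Its 95% interval ran from 0.758 to 2.98 on the log2 scale, or from 1.69-fold to 7.87-fold. For mt-co1 the log2 fold change was 1.50 (SE 0.441, edgeR adjusted p = 0.146), with an interval of 1.43-fold to 5.63-fold. For mt-nd2 it was 1.77 (edgeR adjusted p = 0.237) and for mt-atp6 1.47 (edgeR adjusted p = 0.292). The intervals of mt-nd1, from 0.574-fold to 10.5-fold, and of mt-atp8, from 0.478-fold to 25.8-fold, spanned no difference. The tool changed some of these calls. DESeq2 and voom with quality weights called 0 of the 6, where they called 2.68% and 1.2% of all transcripts higher in Schwann cells, and the lowest DESeq2 adjusted p among them was 0.0543, for mt-co2. A limma fit on log2(TPM + 1), where TPM is the count per effective length scaled to a fixed total, called 2 of the 6 higher in Schwann cells, mt-co2 (adjusted p = 0.0138) and mt-nd2 (adjusted p = 0.0341), where it called 1.2% of all transcripts in this direction. The median fitted log2 fold change of the 6 was 1.64, against -0.314 over all tested transcripts.

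The oligodendrocyte lineage lay between Schwann cells and neurons for the mean of every one of the 6. Against neurons the ratio of mean CPM was 1.62-fold for mt-nd1, 2.38-fold for mt-nd2, 1.48-fold for mt-co1, 2.28-fold for mt-co2, 2.55-fold for mt-atp8 and 2.62-fold for mt-atp6. For 4 of the 6, all but mt-nd1 and mt-co1, every oligodendrocyte lineage library was above every neuron library, an order held by 10.6% of all tested transcripts. With TMM-normalised CPM this count was 2, mt-co2 and mt-atp6. EdgeR called 0 of the 6, against 0.0854% of all transcripts in either direction, and 1 of the 6 had an unadjusted p under 0.05, against 2.73% of all transcripts that were higher in the oligodendrocyte lineage at that level. This was mt-co2, with a log2 fold change of 1.09 (SE 0.484, edgeR adjusted p = 0.437). The count was 0 without Schwann cells replicate 1, without oligodendrocyte lineage replicate 1 or 3 and without neurons replicate 1 or 3. Without oligodendrocyte lineage replicate 3 the log2 fold changes of mt-nd1 and mt-co1 went from 0.599 to 0.0612 and from 0.465 to 0.0579. DESeq2, voom and limma on log2(TPM + 1) also called 0 of the 6, while they called 1.88%, 2.07% and 1.06% of all transcripts in this direction. The median fitted log2 fold change of the 6 was 1.13, against -0.0622 over all tested transcripts.

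Between the 2 glial groups the 6 transcripts could not be separated. The mean was higher in Schwann cells for each, from 1.21-fold for mt-atp6 to 2.18-fold for mt-co1 as a ratio of mean CPM. Every transcript overlapped: Schwann cells replicate 3 was below oligodendrocyte lineage replicate 3 for all 6, so 0 of the 6 had non-overlapping libraries, where 6.09% of all tested transcripts had every Schwann cell library higher. EdgeR called 0 of the 6, against 0.795% of all transcripts in either direction. Only mt-co1 had an unadjusted p under 0.05, which 6.35% of all transcripts reached with higher levels in Schwann cells, and its log2 fold change was 1.04 (SE 0.436, edgeR adjusted p = 0.276). This count was 0 without Schwann cells replicate 1 or 2, without oligodendrocyte lineage replicate 1 or 2 and without neurons replicate 1, and 2 without replicate 3 of either glial group. DESeq2, voom and limma on log2(TPM + 1) called 0 of the 6, against 5.66%, 0.846% and 1.27% of all transcripts with higher levels in Schwann cells. The 95% interval of mt-co1, not adjusted over transcripts, ran from 1.04-fold to 4.05-fold, and those of all others spanned no difference. The interval of mt-atp6 ran from 0.433-fold to 2.93-fold, that of mt-co2 from 0.810-fold to 3.62-fold and that of mt-nd2 from 0.551-fold to 4.20-fold. Those of mt-nd1, from 0.385-fold to 6.79-fold, and of mt-atp8, from 0.210-fold to 10.1-fold, were wider. These data do not bound the differences more closely than that. The direction for mt-nd1 and mt-atp6 rested on single libraries: without Schwann cells replicate 2 their log2 fold changes were -0.0749 and -0.405, and without oligodendrocyte lineage replicate 1 that of mt-atp6 was -0.0528. Without Schwann cells replicate 2, that of mt-atp8 went from 0.543 to 0.00948, and those of mt-nd2, mt-co1 and mt-co2 were 0.594, 0.827 and 0.437.

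The 3 comparisons share libraries, so their values are not independent of each other. Within a population the 6 transcripts largely rose and fell together between libraries, so a count of members is not a count of independent results. The scaling of libraries shifted the log2 fold changes. The median over all tested transcripts moved from -0.205 to 0.105 for Schwann cells against the oligodendrocyte lineage and from -0.314 to 0.129 for Schwann cells against neurons when upper-quartile factors took the place of TMM factors. The 6 moved further, their median going from 0.649 to 1.22 and from 1.64 to 2.29, and for mt-nd1 the log2 fold change of Schwann cells over neurons went from 1.29 to 2.03. Library totals alone and DESeq2 size factors also gave a higher median of the 6 than TMM factors in each of the 3 comparisons, so none of these scalings puts their direction to the test. With TMM factors, 44.9%, 43.7% and 48.6% of all tested transcripts were above 0 in the comparisons of Schwann cells with the oligodendrocyte lineage, of Schwann cells with neurons and of the oligodendrocyte lineage with neurons.

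**Figure D2:**
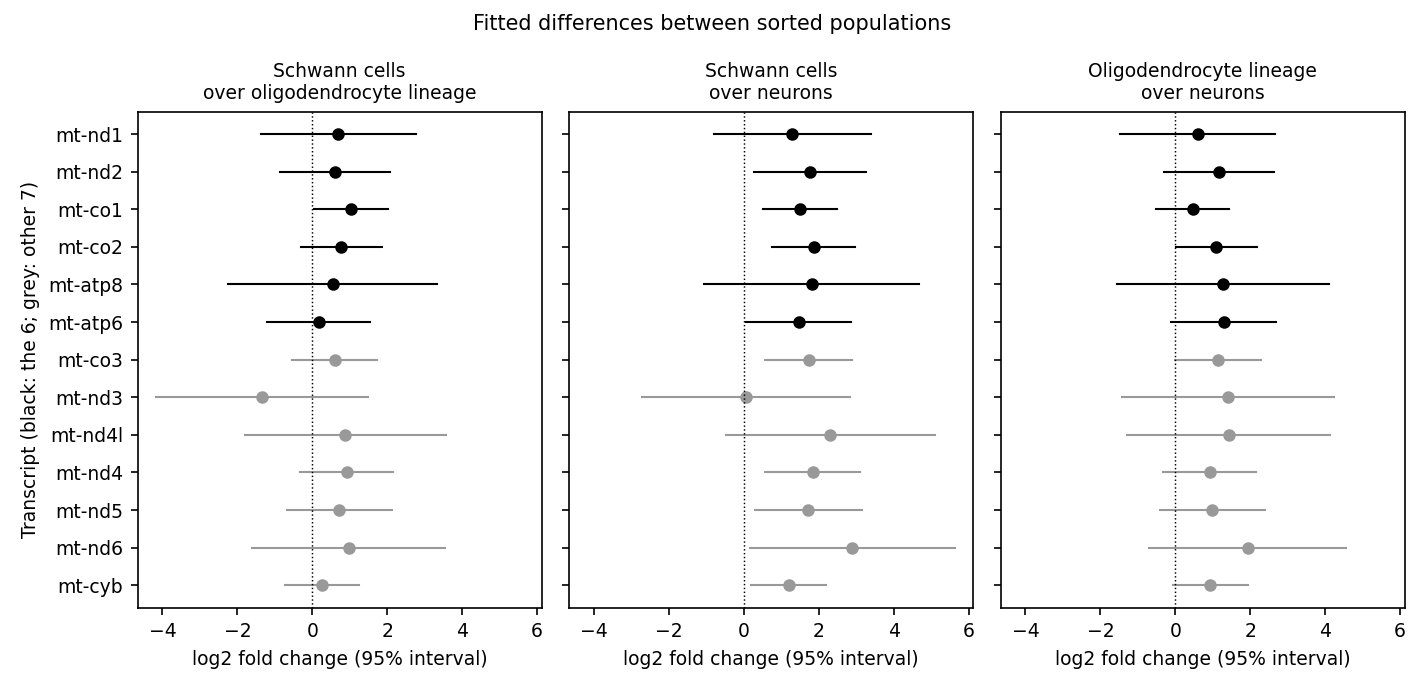
Fitted log2 fold changes (points) with 95% intervals (lines) from edgeR for the 6 transcripts (black) and the other 7 mitochondrial protein-coding transcripts (grey), in genome order, 1 panel per comparison. The points of the 6 lie right of 0 in all panels, from 1.29 to 1.87 for Schwann cells over neurons. Among the 6 the intervals are widest for the short mt-atp8, which has the lowest CPM.

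In each population 1 library was the highest for most of the 6. How many of all tested transcripts were highest in the same library was not counted, so this is not shown to be particular to the 6. In the oligodendrocyte lineage, replicate 3 was the highest library for 6 of 6, with log2 CPM above the group mean by 0.539 to 0.806. In neurons, replicate 2 was the highest for 6 of 6, above the mean by 0.445 to 0.839. In Schwann cells, replicate 2 was the highest for 5 of 6, and replicate 3 was below the group mean for 6 of 6, at deviations from -0.934 to -0.388. Schwann cells replicate 1 split the 6. There mt-nd2, mt-co1 and mt-co2 were above the group mean, by 0.436, 0.384 and 0.156, whereas mt-nd1, mt-atp6 and mt-atp8 were below it, at deviations of -0.745, -0.311 and -0.179. The lowest library was less uniform than the highest: in the oligodendrocyte lineage it was replicate 1 for 4 of the 6 but replicate 2 for mt-nd2 and mt-co2, and in neurons it was replicate 3 for 4 of the 6 but replicate 1 for mt-nd1 and mt-co2. In neurons replicate 3, mt-nd1 was the only one of the 6 above the group mean, by 0.214.

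**Figure D3:**
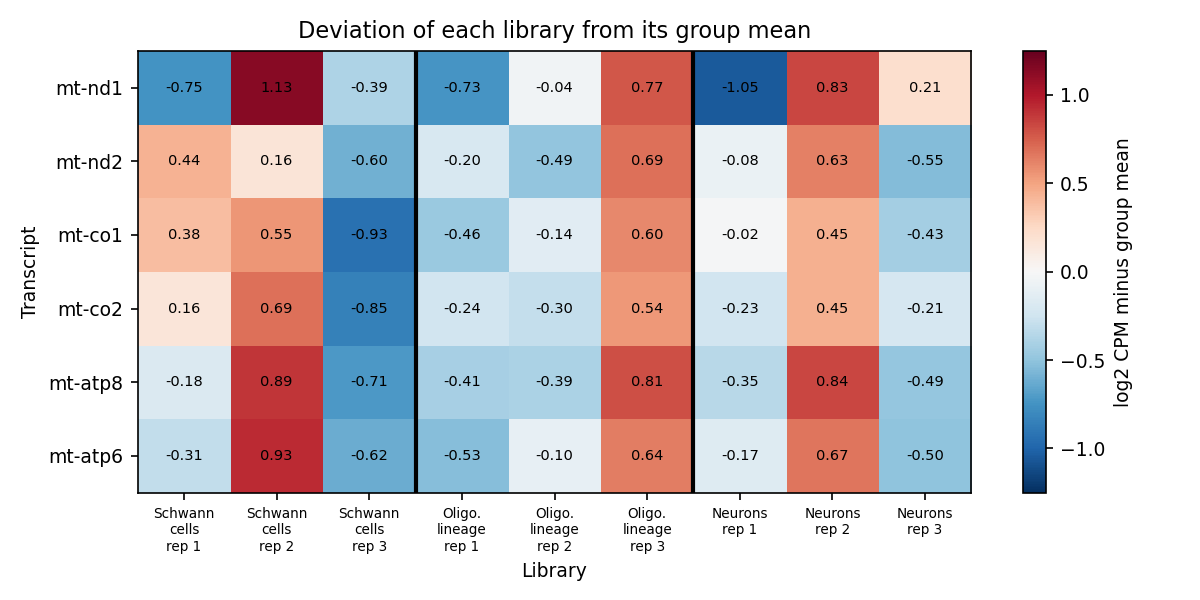
Deviation of log2 CPM from the group mean for each of the 6 transcripts (rows) in each library (columns), with blue for lower and red for higher values and each value printed. The columns of oligodendrocyte lineage replicate 3 (0.539 to 0.806) and neurons replicate 2 (0.445 to 0.839) are red throughout, and the column of Schwann cells replicate 1 holds both signs, from -0.745 for mt-nd1 to 0.436 for mt-nd2.

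Library depth differed alongside the summed share. In each population the library with the highest share of the 6 had the lowest total and the fewest transcripts with a count. These were Schwann cells replicate 2, with 7123251 counts over 16568 transcripts, oligodendrocyte lineage replicate 3, with 11869510 counts over 19122 transcripts, and neurons replicate 2, with 11439759 counts over 23886 transcripts. Across populations, Schwann cell libraries had 16568 to 22994 transcripts with a count and neuron libraries 23886 to 29021. The part of these differences in the levels of the 6 was not tested, and the populations also came from fish with different transgenes, which cannot be told apart from the cell type.

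Per base of annotated length, the order of the 6 was the same in all 9 libraries from mt-co1 over mt-co2, mt-atp6, mt-nd2 and mt-nd1 down to mt-atp8. In Schwann cells the mean was 3262 ± 1497 CPM per kilobase for mt-co1, 1943 ± 942 for mt-co2, 659 ± 402 for mt-atp6, 291 ± 98.2 for mt-nd2, 132 ± 97.8 for mt-nd1 and 79.3 ± 46.5 for mt-atp8 (SD, n = 3). In neurons the same means were 1015 ± 307, 467 ± 134, 208 ± 91.3, 75.6 ± 31.5, 46.7 ± 26.6 and 19.8 ± 10.9 CPM per kilobase. Within a library every step of this order held, although neighbours such as mt-nd1 and mt-atp8 overlapped across libraries. Several places in this order depended on the length used. The deposited effective length, which allows for fragments that would not fit on a transcript, was 27.7 to 40.8 bases for mt-atp8 against its 165 bases. Per effective length, mt-nd1 was above mt-atp8 in 1 of 9 libraries in place of 9 of 9, and mt-co1 was above mt-co2 in 5 of 9. By the same length, mt-nd2 was above mt-atp8 in 6 of 9, and mt-nd1 was above mt-nd2 in 1 of 9.

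Ratios between neighbours within a library do not depend on the scaling of libraries, and 5 such ratios were compared between the 3 populations by exact two-sided permutation tests, 15 in all. With 3 libraries against 3 the smallest possible p is 0.1, so no ratio could pass. The groups did not overlap in 4 of the 15 tests (exact permutation p = 0.1 each, adjusted p = 0.375). Without any difference, 3 libraries against 3 fail to overlap, in either direction, with a probability of 0.1 per test. The 15 tests share members and libraries, and the share of other transcript pairs with such an order was not computed. Counts per base of mt-co1 were 1.40 ± 0.185 times those of mt-co2 in the oligodendrocyte lineage, with 1.55 as the highest library, and 2.18 ± 0.326 times in neurons, with 1.86 as the lowest (SD, n = 3 each). Schwann cells, at 1.96, 1.52 and 1.58, overlapped with both. The ratio of mt-nd2 to mt-co1 was 0.120 ± 0.0249 in the oligodendrocyte lineage and 0.0729 ± 0.00828 in neurons (SD, n = 3 each), and this result shares mt-co1 and all 6 libraries with the one before. Both orders also held per effective length.

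The remaining 2 tests concerned mt-atp8 and mt-atp6, which lie on a shared messenger. Counts per base of mt-atp8 were 0.113 to 0.132 of those of mt-atp6 in Schwann cells, 0.0736 to 0.101 for the oligodendrocyte lineage and 0.0809 to 0.104 for neurons. Per annotated base, all Schwann cell libraries were thus above those of both other populations. Per effective length the ranges were 0.252 to 0.355, 0.213 to 0.276 and 0.146 to 0.255, and Schwann cells overlapped with both. The ratio of mt-nd1 to mt-nd2 varied most within a population, from 0.176 to 0.783 in Schwann cells and from 0.292 to 0.969 in neurons, and that of mt-co2 to mt-atp8 overlapped between all populations, from 18.3 to 31.5 over the 9 libraries.

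**Figure D4:**
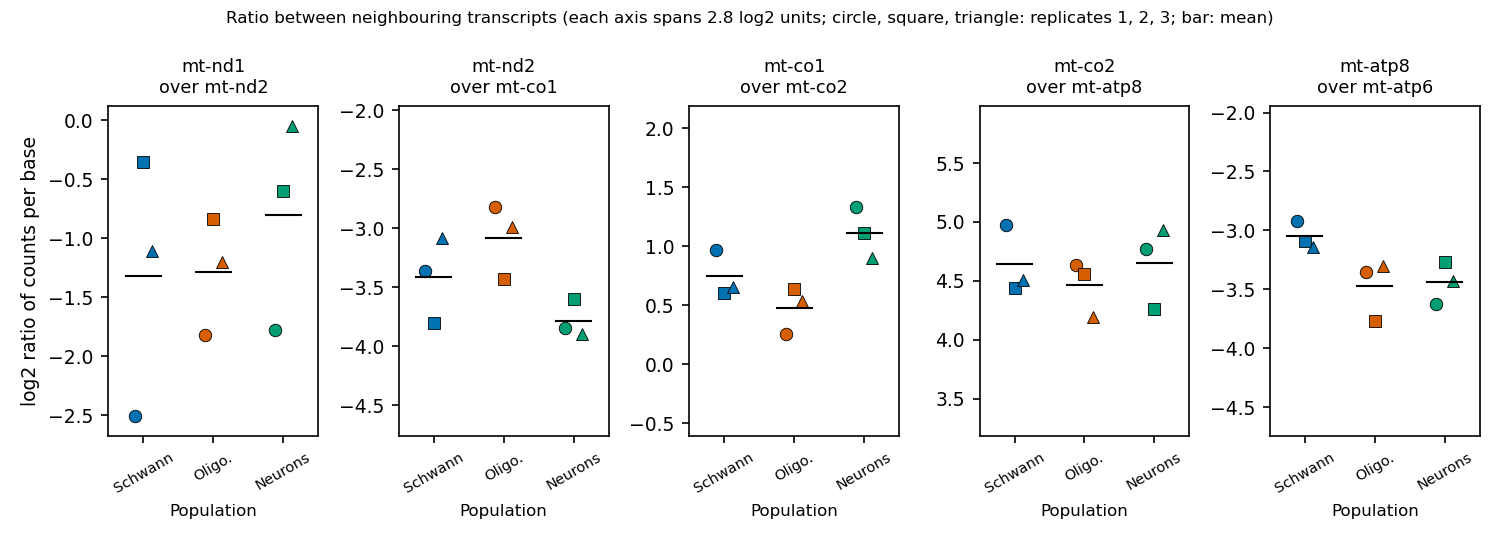
Log2 ratio of counts per base of annotated length between neighbouring transcripts, 1 panel per pair, with 1 symbol per library and a bar at the mean of 3, every panel spanning the same number of log2 units. The pair mt-co1 and mt-co2 has its highest mean in neurons (1.11 against 0.478 in the oligodendrocyte lineage), the pair mt-atp8 and mt-atp6 has its highest values in Schwann cells (mean -3.05), and mt-nd1 over mt-nd2 is the most scattered.

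The other 7 protein-coding transcripts of the mitochondrial genome were mt-co3, mt-nd3, mt-nd4l, mt-nd4, mt-nd5, mt-nd6 and mt-cyb, the last being the one such gene of complex III. The 6 described transcripts held 53.9% to 66.0% of the counts of all 13. EdgeR called 0 of the 7 in each comparison, against 0.795% of all transcripts for Schwann cells and the oligodendrocyte lineage, 0.355% for Schwann cells and neurons and 0.0854% for the oligodendrocyte lineage and neurons. At an unadjusted p under 0.05, 5 of the 7 were higher in Schwann cells than in neurons, against 2.7% of all transcripts. This count was 2 without Schwann cells replicate 2, neurons replicate 1 or neurons replicate 3. At the same level 0 of the 7 were higher in Schwann cells than in the oligodendrocyte lineage and 0 of the 7 in the oligodendrocyte lineage than in neurons, against 6.35% and 2.73% of all transcripts. DESeq2 called 2 of the 7 higher in Schwann cells than in neurons, mt-nd4l and mt-nd6, where it called 2.68% of all transcripts in this direction, and limma on log2(TPM + 1) called 4 of the 7, against 1.2% of all transcripts. Voom called 0 of the 7, against 1.2% as well. The transcript mt-nd6, whose gene lies on the strand opposite to the other 12, averaged 4.18 ± 1.08 CPM in neurons, 17.2 ± 4.62 CPM for the oligodendrocyte lineage and 35.6 ± 21.8 CPM for Schwann cells (SD, n = 3 each). Its ratio of mean CPM between Schwann cells and neurons was 8.53-fold (edgeR adjusted p = 0.285). Whether counting used the strand is not given in the sources used here, so reads from its antisense partner cannot be told apart.

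One of the 7 did not share the order of the 6. The complex I transcript mt-nd3 had 1.41, 2.11 and 2.32 CPM in the Schwann cell libraries, 3.09, 9.37 and 1.94 in those of the oligodendrocyte lineage and 1.69, 2.01 and 1.17 in those of neurons. The populations overlapped throughout, and the mean of 4.80 CPM in the oligodendrocyte lineage rested on replicate 2, with 143 counts against 45 and 23 in replicates 1 and 3.

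Across the 9 libraries, log2(CPM + 1) of each tested transcript was set against that of the sum of the 6. Of the 20 with the highest Pearson r among 23408, 4 were members, which are part of the sum, 5 were among the other 7, and the rest were IDs outside the 13. In all, 32 transcripts had an r above 0.9. Of the members, mt-co1 had an r of 0.993, mt-co2 0.976, mt-atp8 0.948, mt-nd2 0.947, mt-atp6 0.886 and mt-nd1 0.779, and the r of mt-nd3 was -0.0543. The most alike IDs outside the 13 were ENSDART00000163256.1, with r = 0.958 and Spearman's rho = 0.883, and ENSDART00000064281.5, with r = 0.950 and rho = 0.917. ENSDART00000163256.1 averaged 16.5 ± 5.29 CPM in neurons, 23.3 ± 9.40 CPM for the oligodendrocyte lineage and 74.7 ± 45.4 CPM for Schwann cells (SD, n = 3 each). These coefficients describe 9 libraries that fall into 3 populations and share the library totals, and the sum is mostly mt-co1.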

How the data were processed

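Per the labels' protocols, each sample was 1750 ± 750 sorted cells, whose RNA was isolated with a micro kit and amplified by SMART-Seq v4 chemistry. Each deposited table holds, per the file headers, an estimated count, a length and an effective length in bases for every transcript ID. FastQC, Trimmomatic, Bowtie2 2.1.0, RSEM 1.2.15 and danRer10 appear in the submitters' processing notes with no order or role. For the annotation release, as for the program behind the tables, the entry is not given in the sources used here. After rounding, the counts were analysed with edgeR 4.0.16 in R 4.3.3. The function filterByExpr, by group, kept 23408 transcripts and all 6 members. TMM scaling was applied, and the quasi-likelihood fit used all 9 libraries with population as the sole factor (6 residual degrees of freedom). P-values are two-sided, adjusted over all transcripts, and called under 0.05. Levels are CPM of library totals, with SD over 3 libraries. Standard errors and 95% intervals follow from the F statistic. The fit was checked on simulated counts with log2 changes larger than any fitted for the 6 members, and thus not for differences of their size. The references of 29201 and 49597 genes are listed by gene and not by transcript. They thus could not pair the deposited transcript IDs with symbols directly. By the fixed rule every member was named in each comparison, beside the other IDs of their numbered run and the 2 most alike IDs. Lists of nuclear respiratory chain genes, mitochondrial expression factors and cell type markers were not analysed here. Alternatives used DESeq2 1.42.0, limma 3.58.1 (voom, and log2(TPM + 1) with a pseudocount of 1), other scalings and filters, a replicate block and left-out libraries. The members and lists were chosen with earlier results of these data known.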

Additional observations from a re-analysis of the deposited data

How the results depend on the processing

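The common coefficient of variation fitted by edgeR over all tested transcripts was 1.584. Its trend value for the 6 ran from 0.984 for mt-co1 to 1.79 for mt-atp8. The value fitted for each transcript ran from 0.676 for mt-co1 to 1.03 for mt-atp8. These are model estimates and not the observed scatter. The observed coefficient of variation of CPM within a group was lower for the 6. It ran from 28.6% for mt-co2 in neurons to 74.1% for mt-nd1 in Schwann cells. The lowest count of a member, 29 for mt-atp8 in neurons replicate 3, has a Wilson interval of 1.48 to 3.05 CPM, which treats counts as independent draws. What kept the 6 uncalled was not tested. Of the 18 fitted log2 fold changes of the 6 transcripts (3 comparisons), all kept their direction and stayed uncalled under other scalings (each of which raised the median of the 6), filters, DESeq2, voom, a robust fit, a fit of the compared groups alone and the replicate block. The exceptions were limma on log2(TPM + 1), which called mt-nd2 (1.81) and mt-co2 (1.79) between Schwann cells and neurons, and left-out libraries, between Schwann cells and the oligodendrocyte lineage. There mt-nd1 ranged from -0.0749 to 1.30 and mt-atp6 from -0.405 to 0.676, both lowest without Schwann cells replicate 2, and mt-atp6 was at -0.0528 without oligodendrocyte lineage replicate 1. Without Schwann cells replicate 2, mt-atp8 kept its direction only at 0.00948. Some differences in log2 ratio also changed sign when a library was left out. Between the glial groups, mt-nd1 over mt-nd2 ranged from -0.519 to 0.556. Between Schwann cells and neurons this pair ranged from -1.002 to 0.0734, and mt-co2 over mt-atp8 from -0.208 to 0.124. Between the oligodendrocyte lineage and neurons, mt-atp8 over mt-atp6 ranged from -0.123 to 0.116, where effective lengths gave 0.303. The cause was not tested.

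Counts of calls over all transcripts, in the order Schwann cells against the oligodendrocyte lineage, Schwann cells against neurons and the oligodendrocyte lineage against neurons, were 186, 83 and 20. They were 107, 48 and 8 with upper-quartile factors, 3438, 3197 and 2060 with DESeq2, 511, 1677 and 2130 with voom, 887, 1797 and 1270 with limma on log2(TPM + 1), 363, 344 and 70 with at least 10 CPM in 3 libraries, 7, 13 and 175 with the compared groups alone, and 144 and 65 without a filter for the last 2 comparisons. Leaving out 1 library gave 1 to 504, 1 to 278 and 0 to 65. With the replicate number as a block the counts were 2, 0 and 0, with 2340, 2846 and 2116 at an unadjusted p under 0.05. Over all tested transcripts, after TMM scaling, deviations of same-numbered libraries from their group means had correlations from -0.0386 to 0.0251. These values cannot show whether such libraries share a clutch, a sort or a preparation, which the labels do not give.

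As TPM, the 6 together averaged 6060.1 in neurons, 10440.5 for the oligodendrocyte lineage and 19079 for Schwann cells, a different unit from CPM.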
